A study of Mus musculus with 3 samples.

Results

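TBX5 peaks were described at 10 genes of the Notch pathway in the fetal mouse lung: the receptor genes Notch1, Notch2, Notch3 and Notch4, the ligand genes Jag1, Jag2, Dll1 and Dll4, and the target genes Hes1 and Heyl. A peak belonged to a gene when its summit lay inside the gene, or when the nearest end of any protein-coding gene, within 100 kb, was an end of that gene. This rule gave 29 of the 28381 deposited peaks to 8 of the 10 genes, and none of the 29 was shared with another gene. The peaks come from chromatin immunoprecipitation and sequencing of whole lungs of CD-1 mice at E14.5, an embryonic stage of airway branching, with 2 TBX5 ChIP libraries, of 1 lung each, and 1 input library. No genetic change or treatment is given for any library. All 3 libraries are represented by a single list, so no value per library, no replicate spread and no depth were known, no comparison between libraries could be tested, and a peak need not be present in both ChIP libraries.

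Notch signalling passes between touching cells. A ligand of the Jagged or Delta-like family on one cell binds a Notch receptor on its neighbour, proteases cut the receptor, and the freed intracellular domain enters the nucleus, joins the DNA-binding protein RBPJ and a Mastermind co-activator, and switches on genes such as those of the Hes and Hey families. In the lung the pathway is known for the choice between airway cell types and for the building of vessels and their smooth muscle. TBX5 is a T-box transcription factor of heart, forelimb and lung mesenchyme.

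The titles name lung for every library, whereas the second ChIP library and the input have heart in their source field. A peak list holds no expression, so peaks were only counted at marker genes. Such counts cannot tell which tissue was used, since a TBX5 peak does not show that a gene is expressed. Of 10 lung mesenchyme markers, 10 had a peak and 4 a strong peak, a term for those ranked in the first 5000 of the list by −log10 q. Of 9 heart markers, 3 had a peak and the same 3, Nkx2-5, Gja5 and Ryr2, a strong peak, while Nppa, Nppb, Myh6, Myl7, Tnnt2 and Actn2 had 0 peaks. The corresponding counts were 6 with a peak and 4 with a strong one for endothelium, 7 and 1 for pericytes and vascular smooth muscle, and 6 and 2 for lung epithelium, each of 10 genes. Over the whole genome a peak was found at 41.7% of protein-coding genes, and a strong one at 11.9%. Territory, meaning all positions at which a summit would go to the gene, had a median of 30.3 kb for the heart markers and 135.4 kb for those of lung mesenchyme, and longer territories collect more peaks. Among all genes with a territory under 50 kb, 26% had a peak and 3.41% a strong one. From 100 to under 200 kb the shares were 60.8% and 20.4%. The part that heart tissue might have in the values below was not tested.

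The 29 peaks were concentrated at Hes1, with 10, and Notch2, with 8. Notch1, Notch3, Jag1, Dll1 and Heyl had 2 peaks each, Notch4 had 1, and Jag2 and Dll4 had 0. Strong peaks, with a −log10 q of at least 21.35, lay at Hes1 (4 peaks), Jag1 (1) and Dll1 (1), and the other 23 peaks were not strong. So 8 of the 10 genes had a peak, beside 41.7% of the 21631 protein-coding genes, and 3 of 10 had a strong peak, beside 11.9%. These shares depend on territory. Among genes with a territory from 100 to under 200 kb, 60.8% had a peak and 20.4% a strong one, and of the 4 members in that range, Notch2, Jag1, Dll1 and Hes1, all 4 had a peak and 3 a strong one. Both members with a territory from 50 to under 100 kb, Notch1 and Notch3, had a peak, beside 44.9% of such genes, and neither had a strong one, beside 10.8%. Of the 4 members under 50 kb, Notch4 and Heyl had a peak and Jag2 and Dll4 had none, beside 26% of such genes. With so few members and no replicate values, no share was tested, and nothing here is shown to be particular to the pathway.

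**Figure D1:**
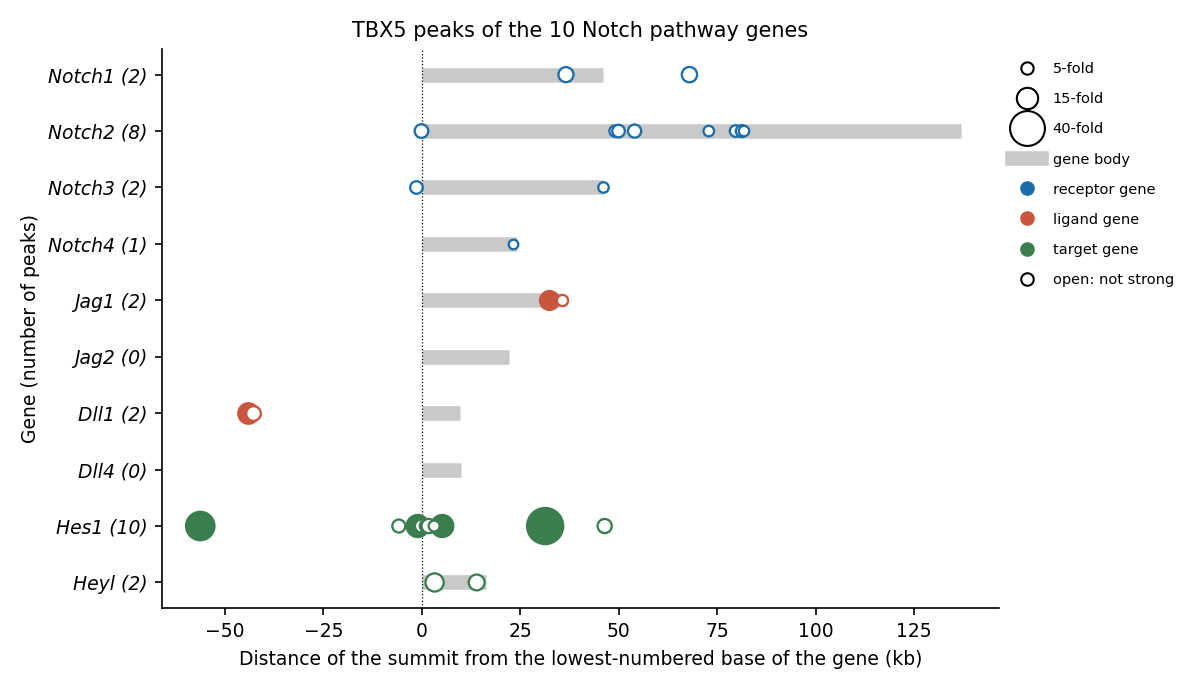
Position of each TBX5 peak (circle) along the 10 Notch pathway genes, in kb from the lowest-numbered base of the gene (horizontal axis), with gene bodies in grey. Circle area follows fold enrichment and filled circles are strong peaks; receptor genes have open circles only, and the largest circles belong to Hes1.

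The receptor genes had peaks at all 4 loci, but weak ones. Their 13 peaks ran from 3.01-fold to 7.70-fold enrichment over local background, a value of the authors' caller, with a median of 4.70-fold. The median over all assigned peaks was 6.19-fold. None of the 13 was strong, beside 16.9% of the 23923 peaks assigned to any gene, and 7 of the 13 were under 5-fold, beside 24.8%.

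Notch2 held most of them. The gene spans 98013538 to 98150367 on chromosome 3 of build mm10 and is read from the lower-numbered end. Its first peak, from 98013199 to 98013649, covered the whole promoter with its summit 99 bp before the start, and at 6.10-fold and a −log10 q of 11.1 it was the strongest of the 8. The other 7 lay inside the gene between 49.1 and 81.8 kb past the start, from 3.59-fold to 5.65-fold. Of all protein-coding genes 2.96% had 8 or more peaks, and of those with a territory from 100 to under 200 kb 3.16%. The count rests on weak peaks: 3 of the 8 reached 5-fold, and 1 was in the upper 50% of the list by −log10 q.

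Notch1, the receptor needed for the formation of embryonic vessels, spans 26457902 to 26503822 on chromosome 2 and is read from the higher-numbered end. It had a peak of 7.45-fold inside the gene, 9.33 kb past its start, and a peak of 7.70-fold 22.0 kb before the start. Those are the highest folds among the receptor genes. Notch3, the receptor of vascular smooth muscle and pericytes (32120820 to 32166896 on chromosome 17), had a peak of 3.59-fold with its summit 48 bp before the start and a peak of 5.19-fold 1.37 kb past the other end, inside the non-coding gene Gm38585. Notch4, an endothelial receptor (34564286 to 34588543 on the same chromosome), had a single peak of 3.01-fold with a −log10 q of 2.58, inside the gene and 989 bp from its last base.

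Promoter sequences, 250 bases before to 50 after the start, were matched by symbol in RefSeq (GRCm38.p6, which is mm10) for 8 of the 10 genes in 9 entries. Hes1 and Heyl were not matched. A TBX5 peak overlapped the promoter of 2 of these 8 genes, Notch2 and Notch3, beside 19.1% of the 17274 protein-coding genes in the table. Both are shown because their summits fall inside the promoter, on the strand of the gene from 5′ to 3′, with the 21 bases centred on the summit in capitals. The Notch2 window is chr3:98013288-98013587 on the plus strand and the Notch3 window chr17:32166841-32167140 on the minus strand.
Notch2: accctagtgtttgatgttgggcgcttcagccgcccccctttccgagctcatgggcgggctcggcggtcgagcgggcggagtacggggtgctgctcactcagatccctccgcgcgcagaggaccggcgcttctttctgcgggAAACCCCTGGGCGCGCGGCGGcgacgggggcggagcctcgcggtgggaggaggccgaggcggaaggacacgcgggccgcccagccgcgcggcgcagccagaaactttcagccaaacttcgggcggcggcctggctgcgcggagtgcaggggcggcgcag
Notch3: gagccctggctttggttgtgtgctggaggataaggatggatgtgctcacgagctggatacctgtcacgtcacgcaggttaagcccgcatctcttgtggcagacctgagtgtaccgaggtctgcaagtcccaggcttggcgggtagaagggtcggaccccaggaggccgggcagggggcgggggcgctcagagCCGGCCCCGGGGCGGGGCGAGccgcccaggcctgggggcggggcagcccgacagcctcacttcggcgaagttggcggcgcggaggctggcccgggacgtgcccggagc
Both stretches in capitals are made largely of G and C. Of the bases of the promoter 73.0% were G or C at Notch2 and 70.0% at Notch3, beside a median of 56.7% over 21045 promoters of protein-coding genes. The Notch2 promoter held 41 CpG dinucleotides, more than 95.5% of those promoters, and the Notch3 promoter 25, more than 75.0%. The peak covered 300 of the 300 bases at Notch2 and 190 at Notch3. Neither AGGTGT, the core of the T-box motif, nor TGGGAA, the core of the RBPJ motif, was found on either strand of these 2 promoters. The same was so in all 9 member promoters. Beside them, 13.7% of the 32851 promoters in the table, 21045 of them of protein-coding genes, held AGGTGT and 25.6% held TGGGAA. With only 9 entries from 8 genes, no difference from these shares was tested. The peaks outside promoters were not searched, since no genome sequence was used.

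**Figure D2:**
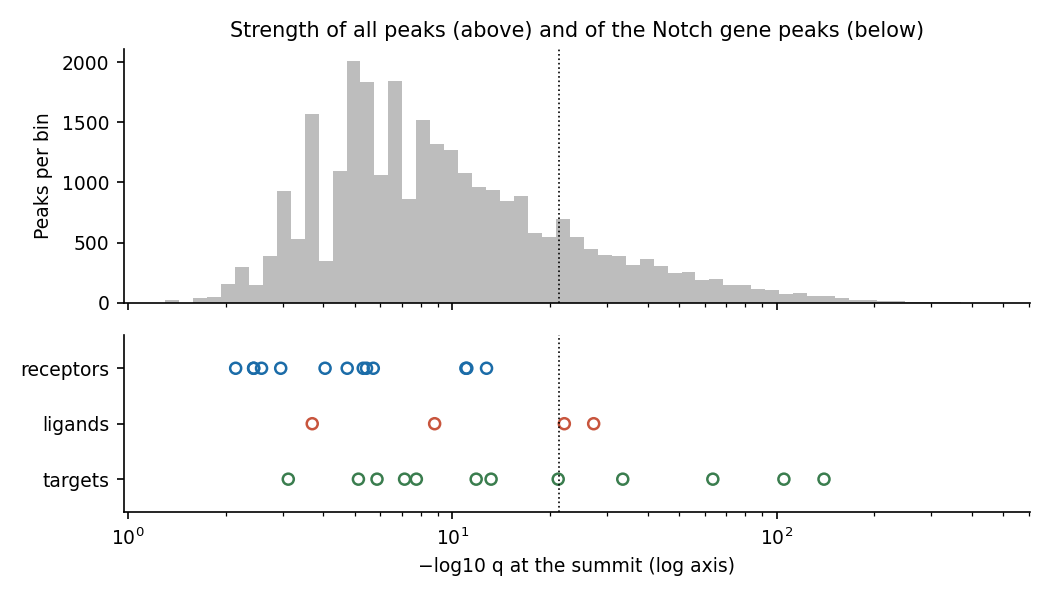
Distribution of −log10 q at the summit over all 28381 peaks (upper panel, peaks per bin) and for each peak of the Notch receptor, ligand and target genes (lower panel, 1 circle per peak), on a log axis. The dotted line marks the lowest value of a strong peak, 21.35; the 13 receptor peaks lie to its left, and 4 of 12 target peaks and 2 of 4 ligand peaks lie to its right.

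The ligand genes divided into Jag1 and Dll1, each with 1 strong peak, and Jag2 and Dll4, with no peak. Jag1 encodes the Jagged ligand that arterial smooth muscle and bile ducts need, and spans 137081451 to 137116520 on chromosome 2, read from the higher-numbered end. Its strong peak, from 137113553 to 137113889, lay inside the gene 2.81 kb past the start, with 11.8-fold enrichment and a −log10 q of 22.1. A second peak, of 4.13-fold, had its summit 469 bp before the start, and 55 bases separated its edge from the 300-base promoter. Jag1 thus held peaks on both sides of its start, the stronger inside.

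Dll1 encodes a Delta-like ligand used in somites and in neural and neuroendocrine precursors. It spans 15367354 to 15376932 on chromosome 17 and is also read from the higher-numbered end. Both of its peaks lay past the last base of the gene, from 15322820 to 15323425 at 44.1 kb (13.8-fold, −log10 q 27.3) and from 15324261 to 15324473 at 43.0 kb (7.07-fold). The next protein-coding gene on that side, Ermard, is 277 kb from Dll1. No peak lay inside Dll1 or at its start. When non-coding genes and pseudogenes also competed for peaks, both went to other genes and Dll1 had 0.

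Jag2 encodes the second Jagged ligand and Dll4 the Delta-like ligand of arterial endothelium and sprouting vessels. The nearest summit to Jag2 was 21.3 kb outside the gene, with 4.24-fold enrichment, and was given to Brf1. The nearest to Dll4 was 20.7 kb outside, with 4.50-fold enrichment, and was given to Vps18. Territories were short, 43.9 kb for Jag2 and 31.3 kb for Dll4, and 26% of genes with a territory under 50 kb had a peak.

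Hes1, the bHLH repressor gene that Notch switches on in many tissues, carried the strongest peaks of the 10 genes. It spans only 2.44 kb, from 30065357 to 30067796 on chromosome 16, within a territory of 196.7 kb, since the flanking protein-coding genes Opa1 and Cpn2 are 402 kb and 189 kb away. Of its 10 peaks, 7 lay within 10 kb of the first base of the gene, in a stretch of 11.8 kb of which 33.6% was covered by peaks, and 3 lay farther out.

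The peak with both the highest −log10 q, 139.9, and the highest fold, 42.9, lay from 30096437 to 30096902, 28.9 kb above the last base. It ranked 182 of 28381 by −log10 q and 157 by fold. The second, from 30008733 to 30009364, lay 56.3 kb below the first base, inside the non-coding gene 4632428C04Rik, with 26.5-fold enrichment and a −log10 q of 105.2. The third outlying peak, 44.0 kb above the gene, was weak at 6.60-fold. The 2 peaks with the highest −log10 q at Hes1 were thus both far outside the gene.

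Near the gene, 2 broad strong peaks stood on either side of it. The lower one, from 30063446 to 30064551, was 1106 bp wide with its summit 1.05 kb below the first base, at 16.0-fold and a −log10 q of 63.5. The upper one, from 30069969 to 30071161, was 1193 bp wide with its summit 2.74 kb above the last base, also at 16.0-fold but with a −log10 q of 33.5. Of all peaks 0.994% were 1000 bp wide or more. Between these broad peaks lay 4 weak ones, from 3.91-fold to 6.70-fold, including one of 5.54-fold whose summit was 133 bp below the first base, and a further weak peak of 5.56-fold lay 5.85 kb below it. At the densest point a Hes1 summit had 5 other summits within 5 kb, as did or exceeded 0.786% of all peaks.

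**Figure D3:**
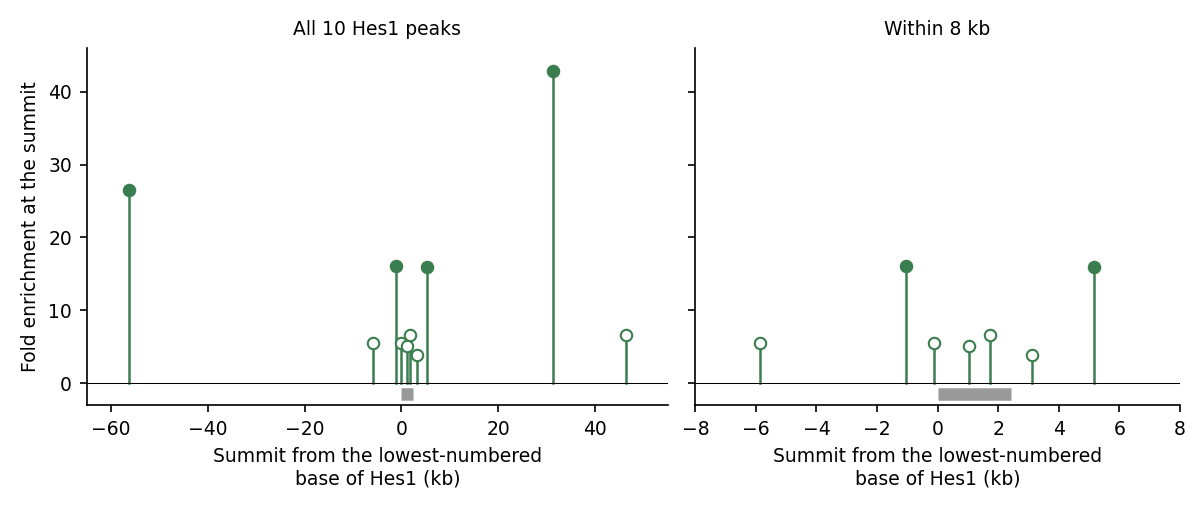
Fold enrichment at the summit (vertical axis) of the 10 Hes1 peaks against distance in kb from the lowest-numbered base of the gene. The left panel spans all 10 peaks but not the whole territory, and the right panel shows those within 8 kb. The grey bar is the gene and filled circles are strong peaks; 2 of the 4 strong peaks, of 26.5-fold and 42.9-fold, lie far from the gene.

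Beside other genes, 1.76% of the 21631 had 10 or more peaks, 0.823% had 4 or more strong peaks, and 0.601% had a peak with a −log10 q as high as that of Hes1. Among genes with a territory from 100 to under 200 kb, 1.36% had 10 or more peaks. These counts depend on the rule. When non-coding genes and pseudogenes competed, Hes1 kept 5 of its 10 peaks and 1 of its 4 strong ones. With a limit of 10 kb in place of 100 kb it kept 7 peaks, 2 of them strong.

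Heyl, a bHLH gene of the Hey group found in vascular smooth muscle and pericytes, had 2 peaks, both inside the gene (123233556 to 123249870 on chromosome 4). The one from 123236619 to 123236978, 3.24 kb from the first base, had 10.9-fold enrichment and a −log10 q of 21.2, and at rank 5056 it fell just outside the 5000 strong peaks, where the Jag1 peak at rank 4843 was the lowest-ranked member inside. The other, of 8.23-fold, lay 2.39 kb from the last base. The territory of Heyl is short at 36.6 kb, which gave 5.46 peaks per 100 kb, the highest density of the 10 genes.

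**Figure D4:**
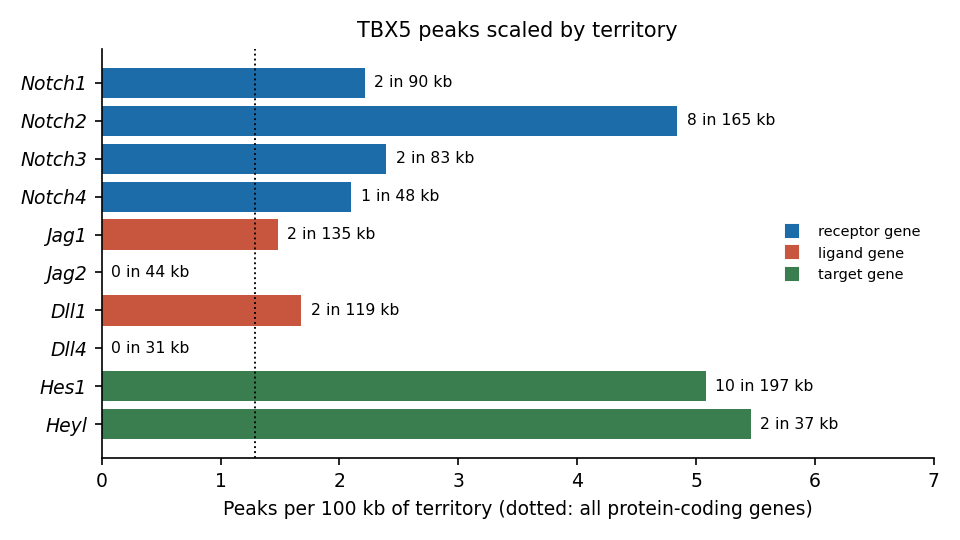
Number of TBX5 peaks per 100 kb of territory for each Notch pathway gene (bars), with the peak count and territory printed beside each bar. The dotted line is the value over all protein-coding genes, 1.29; Heyl (5.46), Hes1 (5.08) and Notch2 (4.84) lie farthest to its right and Jag2 and Dll4 are at 0.

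Scaled by territory, the 2 target genes had 5.14 peaks per 100 kb, the 4 receptor genes 3.36 and the 4 ligand genes 1.21, beside 1.29 over all protein-coding genes. The 10 genes together had 3.05, and 2.52 without Hes1. Single genes weigh heavily in these groups, since Hes1 had 10 of the 12 target peaks and Notch2 8 of the 13 receptor peaks. The 8 other target genes of the pathway, described below, had 6 peaks, none of them strong. Strong peaks made up 20.7% of the 29, beside 16.9% of assigned peaks, and without Hes1 10.5% of 19. The value for the 29 averages unlike groups: 0 of 13 receptor peaks, 2 of 4 ligand peaks and 4 of 12 target peaks were strong. Under 5-fold were 9 of the 29, beside 24.8% of assigned peaks. Of the 29 peaks 7 reached 10-fold, 5 of them at the target genes, beside 20.1% of assigned peaks. The median fold was 5.65, and 5.19 without Hes1, beside 6.19. In position, 7 of the 29 (24.1%) lay within 1 kb of a gene end, beside 20.8% of assigned peaks, and 14 (48.3%) lay inside the gene, beside 62.0% of assigned peaks that were inside a gene. The median width was 319 bp, beside 290 bp.

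The other genes of the pathway were taken as a list of 44 by role. Of these, 26 (59.1%) had a peak, beside 41.7% of all genes, and 4 (9.09%) had a strong peak, beside 11.9%. The genes with a strong peak were Dlk1, Maml2, Maml3 and Numbl. By group, genes with a peak ran from 0 of 5 sugar transferase genes to 9 of 10 protease genes, and no difference between groups was tested.

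Dlk1, a Delta-like protein that lacks the domain with which ligands activate Notch, had 12 peaks, 3 of them strong, in a territory of 161.6 kb on chromosome 12. The highest, from 109473422 to 109474644, lay 10.6 kb outside the gene with 35.0-fold enrichment. Of genes with a territory from 100 to under 200 kb, 60.8% had a peak and 20.4% a strong one. Dlk1, Maml2 and Maml3 were named because they had a strong peak. Of the nuclear genes, Maml3 had 18 peaks, 7 of them strong, 14 of the 18 inside the gene and up to 26.9-fold. Maml2 had 14 peaks, 3 of them strong, all inside the gene and up to 25.6-fold. Both encode Mastermind co-activators and have long territories, 501.8 kb and 433.9 kb, and of genes with 200 kb or more 79.3% had a peak and 41.1% a strong one. Rbpj, the DNA-binding protein of the pathway, had 14 peaks, none strong, up to 9.42-fold. Its territory, 222.2 kb, is in the same range of 200 kb or more. The co-activator gene Maml1 had 0 peaks.

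Numbl, a gene of the Numb family of Notch inhibitors, had 2 peaks, both strong, of 22.8-fold and 13.2-fold, in a territory of 35.5 kb. Of all genes with a territory under 50 kb 3.41% had a strong peak, but Numbl was picked from the 44 for having one. Of the 12 genes for trafficking and ubiquitin ligases, Numbl among them, 8 had a peak. Their territories ran from 6.56 kb (Dtx3) to 319.4 kb (Fbxw7), with a median of 85.2 kb. Over all genes the share with a peak was 26% under 50 kb and 79.3% at 200 kb or more. No single share therefore stands beside the 8 of 12. The protease, sugar transferase and target groups had median territories under 50 kb, a range in which 26% of genes had a peak. Not every gene of these groups was in that range, since protease territories reached 120.8 kb (Adam10) and target territories 122.8 kb (Hey2). Of the 10 protease genes, which include those of the gamma-secretase complex, 9 had a peak and none a strong one, with 1 or 2 peaks each and a highest fold of 8.95, at Aph1a. The 5 genes for enzymes that add sugars to Notch, Pofut1, Poglut1, Lfng, Mfng and Rfng, had 0 peaks in territories with a median of 30.6 kb. Of the other 8 target genes, Hes5, Hes6, Hes7 and Hey1 had 1 or 2 weak peaks each, up to 6.34-fold, and Hes2, Hes3, Hey2 and Nrarp had 0.

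**Figure D5:**
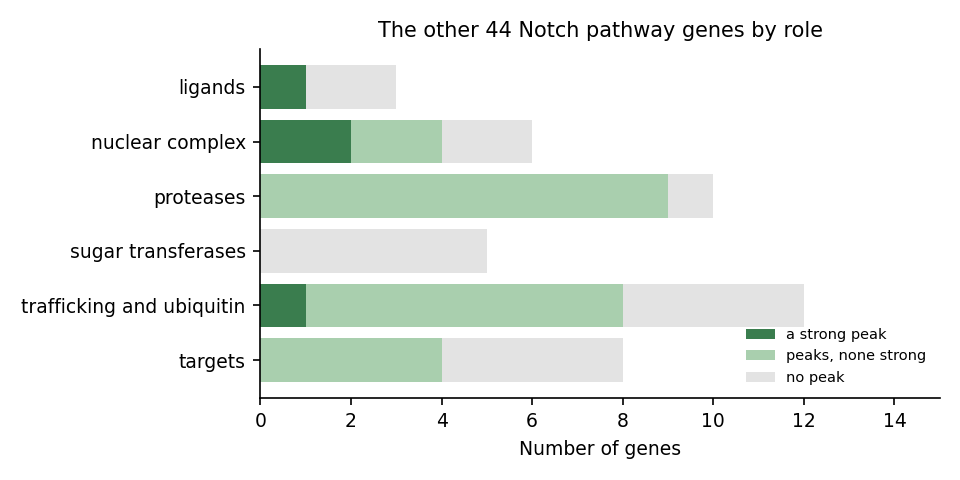
Number of genes (horizontal axis) in each role group of the other 44 Notch pathway genes, divided into genes with a strong TBX5 peak, with peaks that are not strong, and with no peak. Strong peaks occur in 4 genes (ligands 1, nuclear complex 2, trafficking and ubiquitin 1), and the 5 sugar transferase genes have no peak.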

How the data were processed

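The deposited list, without a header, has the layout that MACS2 writes. Per the submitters' processing notes, the tools were Bowtie2, SAMtools and MACS2 and the build mm10; their versions and settings, and whether libraries were merged, were not given in the sources used here. Each peak carries a fold enrichment (a ratio to local background), a −log10 q and a score, as deposited by the authors; these are the authors' values and were compared only between peaks of the same list. Of 28404 peak numbers 23 were absent.

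From the list, the summit (start plus offset) was assigned with Python 3.11.15 and pandas 2.3.3 to protein-coding genes of RefSeq GRCm38.p6, all matched by symbol; positions are 1-based. Strand came from the promoter table; where a gene was not in it, positions are given from its lowest and highest base. Territory is the gene body plus the stretch nearest to its ends within 100 kb. The assignment was checked against known answers. Members and lists were chosen with earlier results of these data known. Named were the 10 genes, each member's highest peaks, and every other pathway gene with a strong peak; further genes completing a role group were named after their values were seen. Marker lists covered heart, lung mesenchyme, endothelium, pericytes with vascular smooth muscle, and lung epithelium; 1 heart marker is not reported here. No test was run. Alternatives were other distances, assignments, peak positions and thresholds.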

Additional observations from a re-analysis of the deposited data

How the results depend on the processing

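The number of the 10 genes with a peak, 8, ran from 6 to 8 over the 8 alternatives tried. Over the same alternatives the share of all protein-coding genes with a peak ran from 26.8% to 42.8%. The 3 genes with a strong peak became 1 with gene bodies alone and 1 with the 1000 highest peaks called strong, and 5 with the 10000 highest. The share of all genes with a strong peak moved as well, from 11.9% to 7.22%, 3.26% and 20.7% in these 3 settings. The 29 peaks became 14 with gene bodies alone and 13 with the upper 50% of the list. The 6 strong peaks became 3 with a limit of 10 kb, 1 with gene bodies alone, 2 when all annotated genes competed, 2 with the 1000 highest and 10 with the 10000 highest. Of the other 44 pathway genes, the 26 with a peak became 15 in the upper 50% of the list. The share of all genes with a peak went from 41.7% to 26.8%. The 4 with a strong peak became 13 with the 10000 highest, where the share of all genes went from 11.9% to 20.7%. Each of these settings changes by construction which peaks count. No library could be left out, ChIP library 2 included, and depth is unknown. No paired analysis was possible because the list holds no value of a single library.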

Other observations

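The rule's limit of 100 kb left out a set of peaks on the far side of the start of Jag1, where no protein-coding gene lies for 1140 kb, up to Btbd3. With a limit of 1 Mb, 11 more peaks had an end of Jag1 as the nearest gene end, from 127.7 to 519 kb before its start, which took Jag1 from 2 peaks to 13. They ran from 4.71-fold to 11.3-fold with a median of 6.27-fold, and none was strong. Peaks left out by the limit were common, since 23923 of the 28381 peaks were assigned to a gene under it. The density of peaks in this stretch was not compared with that of other stretches far from genes. The nearest of them to the limit, at 127.7 kb, had 4.71-fold enrichment, and the 2 with the highest fold, 10.4 and 11.3, lay 272 and 277 kb out. Hes1 gained 2 peaks, of 4.56-fold and 7.07-fold, at 119 and 171 kb below its first base; inside the limit its farthest peak was the one at 56.3 kb. The other 8 genes gained none. Whether any of these peaks bears on Jag1 or Hes1 was not tested.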
